A study of Mus musculus with 4 samples.

Results

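The genes described here are those of the amino acid response that the transcription factor ATF4 drives, with the amino acid transporters tied to it: Atf4, Ddit3, Trib3, Chac1, Asns, Slc7a11, Slc7a5, Slc3a2 and Slc7a1. Every probe set whose platform annotation gave 1 gene symbol among these 9 was taken, which gave 17 of the 45037 probe sets left after those for array control were set aside, and 9 of the 18193 genes named on the array. RNA came from mouse CD4+ T cells, naive when put in culture and drawn from spleen with peripheral and mesenteric lymph nodes. In both groups the cells were held for 7 days in RPMI medium with 10% serum, concanavalin A at 2.5 ug/ml, a plant lectin that activates T cells, and human TGFb1 at 1 ng/ml, a cytokine that steers naive helper cells to a regulatory fate. The 2 arrays of the control group had TGFb1 alone and are called the controls below, and the 2 arrays of the other group also had progesterone, a steroid hormone, added to 2000 ng/ml. Strain, age and sex of the mice, and whether animals were pooled, are not given in the sources used here.

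When a cell runs short of an amino acid, or is otherwise stressed, kinases phosphorylate the translation factor eIF2. Most protein synthesis then slows while the Atf4 mRNA is translated more, so ATF4 activity is set largely at translation and an array does not read it. ATF4 pairs with C/EBP family proteins on a composite element in its target genes, which take up and make amino acids and, under lasting stress, limit survival. Activated T cells depend on amino acid uptake to grow, and the heterodimer of SLC7A5 with SLC3A2 carries most of their leucine.

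The element's core, TGATGNAA, was searched on both strands in RefSeq promoters of build GRCm38.p6, from 250 bases before to 50 after each annotated start. Its reverse complement is TTNCATCA. The promoter table held 8 of the 9 genes, all but Slc7a5, and 4 of these 8 had a match, against 4.51% of 27025 genes and 3.97% of the 32851 promoters. Atf4, Ddit3, Slc3a2 and Slc7a1 had none in the stretch searched, and bases outside it were not read. The stretches around the matches are shown because they hold the core searched for, with the matches in capitals, read 5′ to 3′ along the gene's strand. Whether each match is the element used by its gene was not tested.
Asns: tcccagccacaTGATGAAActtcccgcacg
Slc7a11: cTGATGCAAacctggagaatTTGCATCAtc
Chac1: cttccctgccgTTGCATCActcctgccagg
Trib3: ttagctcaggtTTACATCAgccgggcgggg
The Asns stretch lies at chr6:7693214-7693243 on the minus strand, with its match 23 to 16 bases before the start. The Slc7a11 stretch, at chr3:50443651-50443680 on the minus strand, has a pair of matches that face each other, the first beginning 66 bases and the second 47 bases before the start. In Chac1 (chr2:119351038-119351067, plus strand) the match begins 193 bases before the start, and in Trib3 (chr2:152344028-152344057, minus strand) 15 bases after it. A match describes these letters and shows no binding.

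None of the 9 genes passed the test for a difference between the groups. Of the 17 probe sets 13 lay above the level filter and were tested, and 0 of 13 had an adjusted p under 0.05 by limma. Over all 22518 tested probe sets 5.99% changed, 3.62% lower with progesterone and 2.36% higher. An unadjusted limma p under 0.05 was found for 4 of the 13, and for 4797 of the 22518. The point estimates leaned lower: 11 of the 13 were below 0, with a median log2 difference of -0.28 (progesterone minus TGFb1 alone), against a median of 0.027 over all tested probe sets. Some genes count more than once there. With only the tested probe set of highest mean for each gene, 7 of 8 were below 0, with a median of -0.15 against 0.022 over all tested genes. After quantile normalisation the arrays of the 2 groups did not overlap for 8 of the 13 (7 lower, 1 higher). Of all tested probe sets 53.2% did not overlap, 24% lower and 29.3% higher. Whether the replicates were separate cultures or mice is not given in the labels, so each p measures only the spread between these arrays. In RNA from a whole culture, fewer cells that express a gene and less RNA per cell cannot be told apart.

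The count of 0 depended on scaling. The trimmed mean signals of the arrays ran from 107.71 to 154.55, lowest in a progesterone array, and all differences below are from quantile normalised values as log2(signal + 16), with the standard error (SE) of the limma fit and 95% interval, n = 2 per group. With the values as deposited 2 of the 13 member probe sets passed as lower, 1 each of Atf4 and Trib3, and 7 did after median centring, in which each array's own median is subtracted. Of all 22518 tested probe sets 1298 passed as lower with the values as deposited and 5264 after median centring, against 816 after quantile normalisation. Those settings moved the median of all tested probe sets to -0.16 and -0.28, and the members' median lay 0.27 below it in both. With the arrays scaled to their trimmed means 0 passed, and the members' median was -0.16 against 0.10 for all.

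**Figure D1:**
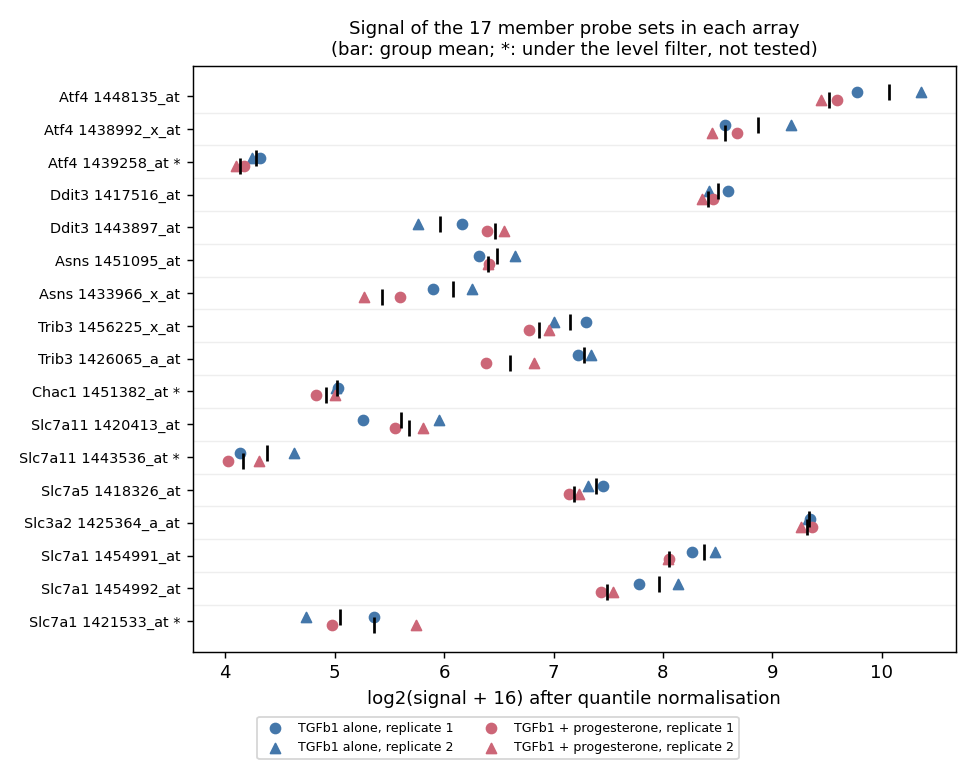
Each row is 1 probe set of the 9 genes, and each point is 1 array on the log2(signal + 16) scale after quantile normalisation, with TGFb1 alone in blue, TGFb1 with progesterone in red and a bar at each group's mean of 2. The upper Atf4 row shows both progesterone arrays below both TGFb1 arrays and a wide gap within the TGFb1 group, and the Slc3a2 row shows all 4 arrays together.

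Atf4, the transcription factor of the response, had 3 probe sets. For 1448135_at the deposited signals were 994 and 1409 in the controls and 743 and 522 with progesterone, so both progesterone arrays were lower. Quantile normalised signals were 858, 1295, 754 and 682 in the same order, still without overlap but with a gap of 0.58 in log2 between the controls. The difference was -0.55 ± 0.18 (SE), with a 95% interval from -0.96 to -0.13 and a limma adjusted p = 0.136. This value rested on which TGFb1 array was kept. It was -0.82 and passed (adjusted p = 0.00581) without TGFb1 replicate 1, and it was -0.25 (adjusted p = 0.283) without TGFb1 replicate 2. Over all alternatives its adjusted p ran from 0.00363 to 0.504, and it passed in 4 of 14.

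The second Atf4 probe set, 1438992_x_at, had deposited signals of 415 and 608 with TGFb1 alone and 395 and 263 with progesterone. Its suffix marks probes that can also match other transcripts. After normalisation the groups overlapped (363 and 561 against 394 and 334), and the difference was -0.31 ± 0.20, with an interval from -0.77 to 0.16. It was -0.60 without TGFb1 replicate 1 (adjusted p = 0.0611) and -0.0028 without TGFb1 replicate 2. The third, 1439258_at, lay under the level filter with signals of 3.37, 2.53, 2.56 and 1.15 and was not tested.

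Ddit3 encodes CHOP, a bZIP factor linked to cell death under prolonged stress, and its probe sets did not move together. Probe set 1417516_at read 422 and 351 in the controls and 338 and 247 with progesterone as deposited. Its normalised values of 370 and 327 against 336 and 311 overlapped, and the difference was -0.099 ± 0.13, with an interval from -0.41 to 0.21. Probe set 1443897_at was higher in both progesterone arrays, at 57.1 and 36.6 against 73.3 and 66.5 as deposited. Its difference was 0.51 ± 0.22 (interval -0.0039 to 1.02, adjusted p = 0.238). It is the single member probe set whose groups separated in the higher direction. With the mean of the gene's probe sets Ddit3 was at 0.20, against -0.099 for 1417516_at alone.

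Trib3, a pseudokinase that ATF4 and CHOP induce and that holds ATF4 back, had both progesterone arrays below both TGFb1 arrays in each of its probe sets. In 1426065_a_at the deposited signals were 144 and 154 with TGFb1 alone and 72.8 and 82.4 with progesterone. The difference was -0.68 ± 0.20, with an interval from -1.14 to -0.22. Its limma adjusted p = 0.0993 was the lowest of the 13 tested. It passed with the values as deposited (-0.82, adjusted p = 0.0293) and after median centring (-0.94, adjusted p = 0.00669). In 1456225_x_at the signals were 153 and 117 against 100 and 91.4, and the difference was -0.28 ± 0.18 (interval -0.71 to 0.14).

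Chac1, which breaks down glutathione and is among the sharpest ATF4 targets under stress, was dim in all 4 arrays. Its 1 probe set read 15.2 and 14.9 with TGFb1 alone and 15.0 and 15.9 with progesterone as deposited. It lay under the level filter and was not tested, and the normalised difference of -0.10 turned to 0.020 with the values as deposited.

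Asns makes asparagine from aspartate and is the classic gene of the amino acid response. Probe set 1451095_at had deposited signals of 66.2 and 86.3 in the controls and 74.5 and 59.5 with progesterone, which overlapped. Its difference was -0.080 ± 0.20, with an interval from -0.54 to 0.38, and it was 0.091 with the arrays scaled to their trimmed means. The other probe set, 1433966_x_at, was dimmer and lower in both progesterone arrays, at 43.3 and 60.5 against 37.8 and 22.0. Its difference was -0.64 ± 0.25 (interval -1.22 to -0.068, adjusted p = 0.19). The 5 tested probe sets of other genes whose profile over the 4 arrays lay nearest to 1451095_at belonged to Setd6, Nf2, Pik3cd, Ankrd28 and Nudt3, at Euclidean distances of 0.018 to 0.026 in centred log2 values. With 4 arrays and a profile this flat, that is a description only.

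Among the transporters, neither gene of the CD98 pair passed. Slc3a2, the shared heavy chain that brings light chains to the cell surface, read 736 and 679 with TGFb1 alone and 634 and 461 with progesterone as deposited. Normalised, its signals were 634 and 627 against 641 and 599, and the groups overlapped. The difference was -0.025 ± 0.11, and its interval from -0.28 to 0.23 was the narrowest of the members. Slc7a5, the light chain that carries leucine and other large neutral amino acids, read 172 and 151 against 131 and 112. Its groups did not overlap, and the difference was -0.19 ± 0.16 (interval -0.56 to 0.17, adjusted p = 0.519).

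Slc7a1 carries arginine and lysine, and its 2 tested probe sets were lower in both progesterone arrays. In 1454992_at the deposited signals were 226 and 285 with TGFb1 alone and 161 and 140 with progesterone, a difference of -0.47 ± 0.17 after normalisation (interval -0.86 to -0.081, adjusted p = 0.163). In 1454991_at they were 329 and 366 against 253 and 198, a difference of -0.32 ± 0.14 (interval -0.64 to 0.0059, adjusted p = 0.242). The third probe set, 1421533_at, was under the level filter with signals of 23.2, 9.65, 18.7 and 34.6, which overlapped.

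Slc7a11 encodes the light chain of the cystine and glutamate exchanger and feeds glutathione synthesis. Probe set 1420413_at read 20.6 and 44.8 in the controls and 36.0 and 36.6 with progesterone, so the progesterone values fell between those of the control. Its difference was 0.072 ± 0.29, with the widest interval of the members, from -0.60 to 0.74. The other probe set, 1443536_at, read 1.36, 7.83, 0.286 and 3.91 and was not tested.

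**Figure D2:**
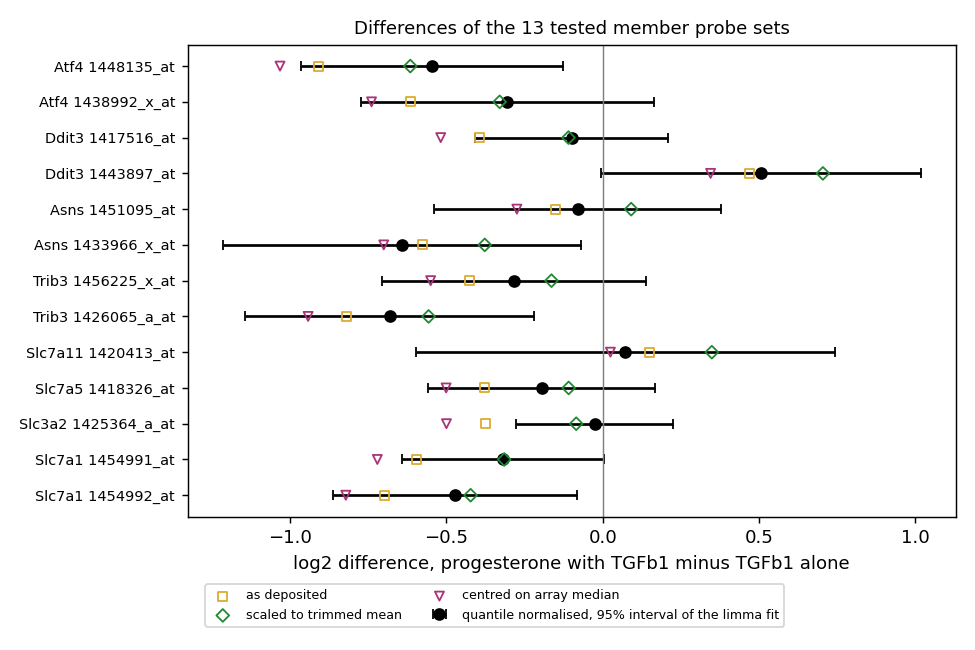
The log2 difference, progesterone with TGFb1 minus TGFb1 alone, is shown for the 13 tested probe sets, with filled points and 95% intervals for quantile normalised values and open symbols for 3 other scalings. The interval lies below 0 for 4 probe sets, of Atf4, Asns, Trib3 and Slc7a1, and the open symbols show how far deposited and median centred values shift most rows to the left. The same 4 have an unadjusted limma p under 0.05, as do 4797 of all 22518 tested probe sets.

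The wider pathway was read from 7 lists chosen by known function, but with earlier results of these data known. Each gene was represented by its probe set of highest mean. Of the 84 genes in the lists 67 were tested, and 4 fell and 0 rose. Of all 10501 tested genes 7.3% changed, 4.68% lower and 2.63% higher. The unadjusted limma p was under 0.05 for 13 of the 67, and for 2474 of all 10501 tested genes. All 4 that fell were amino acid synthesis enzymes or close to them, a list of which 9 genes were tested. Given how the lists were chosen, this gathering in 1 list is a description only. The median of the 9 was -0.48, against 0.022 over all tested genes. That median is the value of Gpt2, whose groups overlapped. The progesterone mean of Gpt2 was under the level filter, so it was tested only through its higher TGFb1 signals.

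Psat1, the aminotransferase of serine synthesis, read 336 and 195 with TGFb1 alone and 93.7 and 78.1 with progesterone, and fell by 1.24 ± 0.22 on the log2 scale (limma adjusted p = 0.0187). Pck2, the mitochondrial enzyme that makes phosphoenolpyruvate, read 711 and 693 against 327 and 238 and fell by 0.97 ± 0.12 (adjusted p = 0.00418). Mthfd2, of the mitochondrial folate cycle, read 853 and 571 against 383 and 224 and fell by 0.89 ± 0.20 (adjusted p = 0.0395). Phgdh, which opens serine synthesis, read 1076 and 953 against 514 and 382 and fell by 0.81 ± 0.11 (adjusted p = 0.00526). In each of the 4 genes both progesterone arrays were below both TGFb1 arrays, as deposited and after normalisation. Both probe sets passed for Psat1 and for Mthfd2, 1 of 2 for Pck2 and 2 of 4 for Phgdh, and every tested probe set of the 4 genes was lower, from -1.27 to -0.32. The calls depended on both progesterone arrays. Without progesterone replicate 1 only Pck2 of the 4 passed (Phgdh had an adjusted p = 0.0539, Psat1 0.114 and Mthfd2 0.0768), and without progesterone replicate 2 none did, at adjusted p-values from 0.073 to 0.306 and differences from -1.29 to -0.69. Mthfd2 was also lost without TGFb1 replicate 1 (-0.65, adjusted p = 0.088) and in the upper 25% by mean (0.0503). With no filter Psat1 (0.0732) and Mthfd2 (0.121) did not pass, and with no intensity trend neither these 2 (0.0774 and 0.133) nor Phgdh (0.0536) did.

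The remaining lists had no gene that passed. Of 8 tested eIF2 kinases and regulators of its phosphatase (median -0.055), Ppp1r15b was at 0.098 ± 0.12 and Ppp1r15a, the stress-induced phosphatase subunit that restores translation, at -0.96 ± 0.51 (adjusted p = 0.328). Ppp1r15a read 355 and 1391 in the controls and 322 and 253 with progesterone, so its difference rested on TGFb1 replicate 2, without which it was 0.025, whereas without TGFb1 replicate 1 it was -1.91 and passed (adjusted p = 0.000174). TGFb1 replicate 2 was also the higher array for Atf4, whereas Psat1 and Mthfd2 were higher in TGFb1 replicate 1.

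bZIP partners and stress targets (8 tested, median -0.074) included Ddit4, an inhibitor of mTOR, at 0.27 ± 0.20 and Eif4ebp1, a brake on translation, at -0.21 ± 0.16. Ddit4 was at 0.63 and passed without TGFb1 replicate 1 (adjusted p = 0.00678), and was at -0.10 without TGFb1 replicate 2. Sesn2, a leucine sensor upstream of mTOR that was singled out after its value was seen, was nearest to the threshold, at -0.69 ± 0.17 with an adjusted p = 0.0537, and passed in 6 of 16 alternatives. Its signals were 240 and 211 against 115 and 113.

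The tRNA synthetase genes known as ATF4 targets, taken with the tRNA export factor Xpot, were nearly level. All 13 were tested, with a median of 0.074 and a range from -0.32 to 0.22, and 5 of the 9 with a promoter entry held the element's core. Nars was at 0.16 ± 0.11 and Sars at -0.26 ± 0.099. The 7 tested synthetase genes outside that group had a median of -0.024, with Qars at -0.23 ± 0.13 and Hars at -0.053 ± 0.13, and 0 of 5 promoters held the core. In the other lists the core was held by 3 of 11 amino acid synthesis enzymes and 4 of 11 bZIP partners and stress targets. It was held by 2 of 14 other transporters, 0 of 7 eIF2 genes and 0 of 9 glutathione genes. Of the 4 enzyme genes that fell, 1 held it, Pck2. Other amino acid transporters (11 of 18 tested) had a median of 0.26, and the glutamine and alanine carriers Slc38a2 (0.039 ± 0.11) and Slc38a1 (-0.096 ± 0.12) were near 0. Of 11 tested glutathione and NRF2 target genes (median 0.13), the lipid peroxidase gene Gpx4 was at -0.0079 ± 0.086 and Nfe2l2, which encodes NRF2, at 0.28 ± 0.13. Slc7a2 of the transporters, and Hmox1 and Srxn1 of the glutathione list, had TGFb1 means under the level filter. They were tested only through the progesterone group, so the medians of these 2 lists are descriptions only. The differences of Ppp1r15b, Ddit4, Nars, Slc38a2 and Nfe2l2 turned below 0 with the values as deposited.

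**Figure D3:**
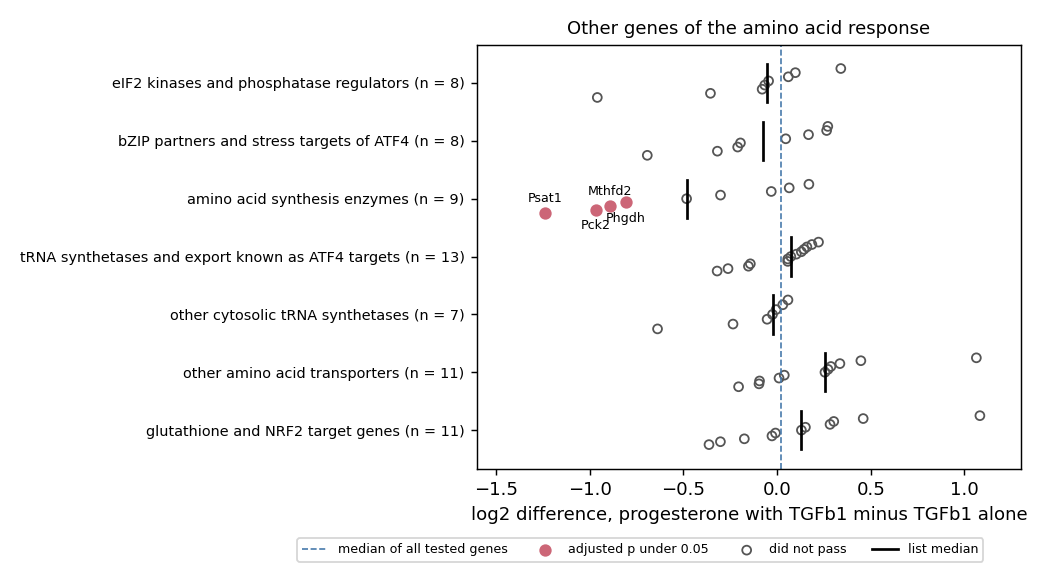
Each point is 1 tested gene of a pathway list, placed by its log2 difference, progesterone with TGFb1 minus TGFb1 alone, with filled red points for adjusted p under 0.05, black bars for list medians and a dashed line for the median of all tested genes. The filled points, Psat1, Pck2, Mthfd2 and Phgdh, all lie in the row of amino acid synthesis enzymes, from -1.24 to -0.81.

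**Figure D4:**
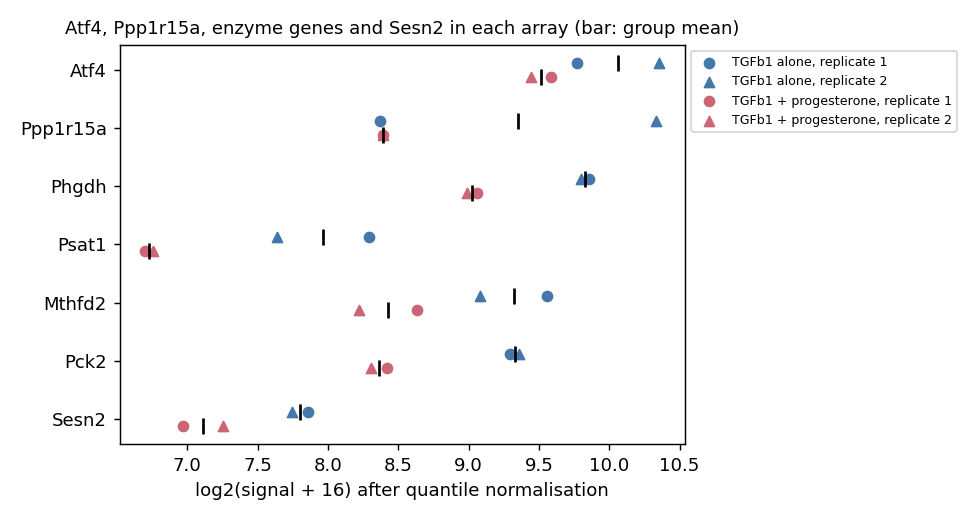
Rows give Atf4, Ppp1r15a, the 4 enzyme genes and Sesn2 in each array on the log2(signal + 16) scale after quantile normalisation, with a bar at each group's mean of 2. The enzyme genes separate by group in all arrays, whereas the Ppp1r15a mean of the TGFb1 group is carried by replicate 2.

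The groups also differed in genes outside the response, which bears on all of these values. Xist read 9.52 and 9.70 with TGFb1 alone and 1390 and 825 with progesterone, and the Y-linked Eif2s3y read 689 and 727 against 4.25 and 0.492, so a difference in the sex of the cells and the treatment cannot be told apart. The 5 T cell markers tested, Cd4 and the CD3 chain genes among them, were well above the level filter in all 4 arrays, with summed normalised signals of 19440 to 20630 in the controls and 19700 to 19860 with progesterone. None of the 5 passed, and they did not move together. After normalisation Cd4 (-0.34) and Cd5 (-0.21) were lower in both progesterone arrays, and the CD3 chain genes were higher, at 0.049 to 0.11. The 6 myeloid markers summed to 182 to 360.9 against 860 to 988.9, led by Lyz2, which rose by 2.69 ± 0.39 (limma adjusted p = 0.00774). Normalised, Lyz2 alone read 173 and 54.1 in the controls against 685 and 771 with progesterone, which was most of the progesterone sums. The other 4 tested myeloid markers did not pass and did not move together. Itgam was lower with progesterone, at -0.81, and the groups overlapped for Csf1r (0.17), whereas Itgax and Adgre1 were at 0.53 and 0.57. None of the 6 had a signal of 0. Sums were 78.2 to 109.7 against 91.1 to 169.5 for the 4 B cell markers and 142.8 to 169.7 against 102.2 to 154.1 for the CD8 markers. The part of myeloid cells in the differences above was not tested.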

How the data were processed

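The authors deposited linear signal intensity for 45101 probe sets on 4 arrays, which MAS5 produced according to the submitters' processing notes; the version and any scaling are not given in the sources used here. Arrays took biotin cRNA from 2 ug of RNA, per the labels' protocols. Because the trimmed means (2% off each end) differed by more than 5%, with highest over lowest at 1.44, values were quantile normalised and taken as log2(signal + 16), which understates the change of dim genes. After removal of 64 control probe sets, those with a mean above the median were tested (22518). Detection calls were not used, and the number of arrays limits the precision.

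Gene names are those of the platform annotation, updated by Entrez identifier through a RefSeq table of GRCm38.p6 (34741 of 34945 single-gene probe sets matched). Every adjusted p comes from limma 3.58.1 in R 4.3.3 (lmFit, eBayes with an intensity trend, 2 residual and 5.78 prior degrees of freedom), without covariates, adjusted by Benjamini-Hochberg over all tested probe sets with a threshold of 0.05. The script was tested on simulated data. Intervals are for single probe sets and are not adjusted.

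Members and lists were chosen with earlier results of these data known. Named genes are all members, up to 6 passing genes per list or else its 2 with the highest mean, and the 5 nearest to Asns. Alternatives were 3 other scalings, pseudocounts of 0 and 64, no filter, the upper 25% by mean, eBayes without trend or robust, 1 value per gene, the replicate number as a block and leaving out each array. The filter was held at the same probe sets except where it was itself varied.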

Additional observations from a re-analysis of the deposited data

How the results depend on the processing

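With 2 arrays per group and no detection calls, dim probe sets such as those of Slc7a11 and Chac1 limit what can be seen. The number of member probe sets that passed as lower, 0, was 2 with the values as deposited, 7 with median centring, 3 with the replicate block and 0 to 1 when 1 array was left out; none passed as higher in any setting run. Over all probe sets, 816 fell and 532 rose. These counts were 1298 and 287 as deposited, 5264 and 269 with median centring, 358 and 176 with no filter, 351 and 130 with no intensity trend, 1630 and 1522 with the replicate block, and 255 to 928 and 69 to 706 when 1 array was left out, with the lone array of a group assumed to vary like the other group. In the upper 25% by mean 449 fell. Pathway genes that fell, 4, became 7 as deposited, 20 with median centring, 2 with no filter, 1 with no intensity trend, 7 with the replicate block and 0 to 4 when 1 array was left out. Those that rose, 0, became 2 as deposited, 1 with trimmed means, 1 with median centring, 3 with the replicate block and 0 to 1 when 1 array was left out. The replicate numbers do not pair the samples by the labels, and deviations from the group means correlated at 0.18 across probe sets between groups. Values as deposited had infinite prior degrees of freedom, so each probe set's own spread was not used there. The cause of these changes was not tested.

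Differences that did not pass in the values reported also changed sign, and several of these passed in an alternative, among them Slc38a2 with median centring and Ddit4 and Ppp1r15a without TGFb1 replicate 1. As deposited they were -0.26 for Ppp1r15b, -0.16 for Ddit4, -0.20 for Nars, -0.36 for Slc38a2 and -0.075 for Nfe2l2, and with median centring -0.39, -0.28, -0.32, -0.48 and -0.20 in that order. With trimmed means Asns 1451095_at was at 0.091 and Slc38a2 at -0.066. Averaging the probe sets of a gene put Ppp1r15b at -0.023, Qars at 0.029, Hars at 0.16 and Ddit3 at 0.20. Leaving out 1 array gave values from -0.26 to 0.41 for Slc7a11 1420413_at, -0.24 to 0.081 for Asns 1451095_at and -0.074 to 0.023 for Slc3a2. For pathway genes they ran from -0.0072 to 0.20 for Ppp1r15b, -1.91 to 0.025 for Ppp1r15a, -0.10 to 0.63 for Ddit4, -0.19 to 0.092 for Hars, -0.067 to 0.15 for Slc38a2, -0.22 to 0.033 for Slc38a1 and -0.075 to 0.055 for Gpx4.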

Other observations

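Outside the genes named by rule, the largest positive differences of the pathway lists belonged to Hmox1 and Slc7a2, both singled out after their values were seen. Slc7a2, an arginine and lysine carrier, read 11.5 and 12.1 in the controls and 37.1 and 53.4 with progesterone, so the groups did not overlap. Its mean log2 values were 4.86 and 5.93, a difference of 1.06. Hmox1, which breaks down haem and is a target of NRF2, read 4.80 and 28.0 against 63.1 and 39.9. Its means were 4.97 and 6.06, a difference of 1.08, which was 1.62 without TGFb1 replicate 2. Both probe sets were dim and passed the level filter only through the progesterone group, so their tests after that filter support nothing and the values are a description. With no filter the limma adjusted p = 0.227 for Slc7a2 and 0.319 for Hmox1. The myeloid marker Lyz2 was higher in the same arrays, at 189 and 53.5 against 676 and 588; its part in these values was not tested.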
